A study of Mus musculus with 9 samples.

Results

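This account covers 10 mouse genes: Trp53, which encodes p53, its negative regulators Mdm2 and Mdm4, and 7 genes listed here as p53 targets. The 7 are Gadd45a, Gadd45b, Gadd45g, Bbc3, Bax, Ccng1 and Btg2, and whether p53 activates each of them was not tested. All 10 genes were picked by name out of 13592 genes with a peak in the PLAGL1 or H3K4me3 list. The gene names given to each peak by the authors assign them 8 of 3463 PLAGL1 peaks and 16 of 16251 H3K4me3 peaks. A KLF4 site was linked to a gene if it overlapped one of these peaks by at least 1 bp or lay at most 10 kb from it, which gave 23 of 21130 sites. The cells were periosteal stem and progenitor cells, the skeletal progenitors of the bone surface, from the mandibular angle of mice 8 weeks old, and were kept for 3 days in medium with dexamethasone at 1e-07 M, beta-glycerophosphate at 5 mM and ascorbic acid at 50 µg/ml. Binding was profiled by CUT&Tag, in which an antibody directs a transposase to cut and tag DNA near its target.

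All groups carried the floxed allele. Plagl1fl/fl cells given a lentivirus for HA-tagged Plagl1 were profiled with an HA antibody (1 library) and with IgG (1 library), and Plagl1fl/fl cells for which no virus is labelled were profiled for H3K4me3, a mark of active promoters (1 library). FLAG-tagged KLF4 was profiled in Plagl1fl/fl control cells (3 libraries) and in Ctsk-iCre;Plagl1fl/fl cells (3 libraries), in which Plagl1 is deleted where the Ctsk gene drives Cre. Both tagged factors were thus supplied by virus, at a lentivirus multiplicity of 10, on top of whatever the cells make themselves. The vector named in the treatment label changes from Klf4 to Klf9 over the 6 KLF4 libraries while every title says KLF4, and the grouping here is by title. Nothing in the labels states that the libraries of a group came from separate animals, so p-values measure variation among these libraries alone, and that variation may be technical. It is also largely pooled over sites, and is not the spread at a single site. In the H3K4me3 list all 6 of the progenitor genes Prrx1, Pdgfra, Pdgfrb, Ctsk, Postn and Runx2 were marked within 3 kb of their transcription start site (TSS), with peak scores of 273 to 898. Of the markers of other cells, 3 of 3 blood and macrophage genes had lower scores of 35 to 214, 1 of 3 endothelial genes had 179 and 0 of 3 muscle genes was marked.

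p53 is a transcription factor that accumulates after DNA damage and other stress and switches on genes of cell cycle arrest, DNA repair and apoptosis. MDM2 marks p53 for degradation and MDM4 blocks its activity, and because Mdm2 is itself a p53 target the circuit limits its own output. PLAGL1, also called ZAC1, is a zinc-finger factor known to induce arrest and apoptosis and to act as a cofactor of p53, and KLF4 is a zinc-finger factor known both to act with p53 at Cdkn1a and to repress Trp53 in some cells.

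Sequences are shown for 4 promoters on which the binding data bear: those of Bbc3 and Gadd45a, the members with a PLAGL1 peak beside the TSS, and for contrast those of Gadd45b and Gadd45g, the members with no KLF4 site over the TSS. They are the 250 bases before the RefSeq TSS in GRCm38.p6, read 5′ to 3′ along the gene. Bbc3 lies on the plus strand (chr7:16309333-16309582), Gadd45a on the minus strand (chr6:67037408-67037657), and Gadd45b (chr10:80929841-80930090) and Gadd45g (chr13:51846425-51846674) on the plus strand. Capitals mark the KLF core CACCC and the GC box GGGCGG on either strand, and where 2 GC boxes overlap they run together.
Bbc3: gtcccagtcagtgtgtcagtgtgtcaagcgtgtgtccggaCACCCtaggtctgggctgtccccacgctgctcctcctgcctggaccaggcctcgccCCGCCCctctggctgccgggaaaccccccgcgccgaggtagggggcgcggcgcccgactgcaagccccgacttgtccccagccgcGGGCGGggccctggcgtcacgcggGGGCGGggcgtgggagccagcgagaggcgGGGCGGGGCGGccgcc
Gadd45a: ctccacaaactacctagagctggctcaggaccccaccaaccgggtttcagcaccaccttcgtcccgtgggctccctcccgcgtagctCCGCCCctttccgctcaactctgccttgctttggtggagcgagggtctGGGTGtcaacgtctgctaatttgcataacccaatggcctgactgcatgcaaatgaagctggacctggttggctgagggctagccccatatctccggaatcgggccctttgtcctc
Gadd45b: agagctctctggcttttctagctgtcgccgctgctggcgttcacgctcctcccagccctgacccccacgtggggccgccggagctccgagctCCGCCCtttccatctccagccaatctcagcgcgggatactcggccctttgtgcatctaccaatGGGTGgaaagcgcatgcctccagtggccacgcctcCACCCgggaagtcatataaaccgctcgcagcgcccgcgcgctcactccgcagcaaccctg
Gadd45g: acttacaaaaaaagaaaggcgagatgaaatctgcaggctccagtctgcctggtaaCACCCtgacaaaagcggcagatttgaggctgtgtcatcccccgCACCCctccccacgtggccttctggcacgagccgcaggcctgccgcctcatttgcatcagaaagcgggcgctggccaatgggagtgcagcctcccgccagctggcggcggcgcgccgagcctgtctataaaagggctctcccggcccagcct

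The peak tables use mm39 and these sequences GRCm38.p6, so peaks and sequences are related only by their distance from the TSS, and whether a start is the same base in both was not tested. For Bbc3 the first of 3 RefSeq starts was used, which lies 848 bp before the last, the same spacing as between the 2 Bbc3 starts in the peak tables. For Mdm4 the downstream one of 2 RefSeq starts was used, 5171 bp after the other. The motif counts and GC content below describe only the start used. In the window of 250 bases before to 50 after the TSS, CACCC occurred in 6 of the 10 members and in 57.5% of 32851 RefSeq promoter windows. GGGCGG occurred in 6 of 10 members, against 35.7% of all windows, and the PLAGL1 palindrome GGGGCCCC in 0 of 10, against 1.08%. Bbc3 had 5 GC boxes, Bax and Btg2 had 3 each and Mdm2 had 2. The GC content of the window was highest at Bbc3 (76.0%, 97.0th percentile of all windows) and Btg2 (72.0%, 93.3rd percentile), and lowest at Mdm4 (49.7%).

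A p53 response element is known to hold a pair of decamers, and the p53 half-site consensus, searched on both strands, was found in 5 of the 10 windows, against 8.36% of all RefSeq windows. The members were picked as p53 targets, so the difference is described only, and p53 itself was not profiled. The 5 stretches of 30 bases are shown because the match holds letters that a p53 dimer is known to favour, and capitals mark it. They are read 5′ to 3′ along the gene in GRCm38.p6, on the plus strand for Trp53 (chr11:69580274-69580303) and on the minus strand for Mdm2 (chr10:117710925-117710954), Gadd45a (chr6:67037428-67037457), Bax (chr7:45467080-45467109) and Ccng1 (chr11:40755452-40755481).
Trp53: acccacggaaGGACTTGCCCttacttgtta
Mdm2: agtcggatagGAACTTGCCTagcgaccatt
Gadd45a: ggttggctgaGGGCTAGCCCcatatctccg
Bax: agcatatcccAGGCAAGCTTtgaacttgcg
Ccng1: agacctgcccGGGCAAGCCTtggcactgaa

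Measured from the RefSeq TSS, the matches began at -75 bp in Trp53, -186 bp in Mdm2, -40 bp in Gadd45a, -201 bp in Bax and -185 bp in Ccng1. These matches are letters in a window and not measured p53 sites.

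H3K4me3 covered the TSS of all 10 genes. The TSS used here is the annotated start nearest to the centre of one of the gene's own peaks, so this cover is partly built in. The share of all genes with a covered TSS is not given here. A peak bearing the gene's own name lay within 3 kb of the TSS in 9 of them, against 51.3% of 21900 protein-coding genes. The exception by name was Gadd45a, whose TSS sat in a peak of score 1181 (chr6:67012903-67014556, mm39) that the authors' annotation gives to the neighbouring non-coding gene E230016M11Rik. The score is the authors' own whole-number value for a peak, with a median of 617 over the list and 790 over the 13026 peaks within 3 kb of a TSS. H3K4me3 and PLAGL1 had 1 library each, so their values have no replicate error.

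The factor and its inhibitors differed in the shape of the mark. The Trp53 peak (chr11:69469739-69472775) had a score of 722 and ran from -1446 bp to +1590 bp, and its width of 3037 bp ranked 173rd of 16251. Trp53 is known to start next to Wrap53, which is transcribed the other way. At Mdm2 (chr10:117544867-117547103) the score was 1241, and the peak ran from -440 bp to +1796 bp, into intron 1, where the p53-responsive second promoter of Mdm2 is known to lie. Mdm4 (chr1:132951749-132953525) had the second highest score of the 10 genes, 1514, and a further peak of score 536 at -8796 to -7743 bp from its TSS (chr1:132960897-132961950), with its centre at -3098 bp from a second annotated start. That second start, 5171 bp upstream of the TSS used here, lay in neither peak.

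Among the targets, Ccng1, a cyclin that feeds back on p53 through MDM2, had the highest score of all members: 1852, rank 137 of 16251 (chr11:40644971-40646417). Bax, which encodes a pore-forming protein of the mitochondrial route of apoptosis, had 1104 (chr7:45114863-45116397), and Btg2, an antiproliferative gene, had 682 (chr1:134005193-134007076) with a weak upstream peak of score 79 at -14171 bp. Of the Gadd45 genes, which encode small stress sensors that act in arrest and repair, Gadd45g had 971 (chr13:52000507-52002943) and Gadd45b 669 (chr10:80765813-80768364). Both also had a small separate peak upstream of the TSS, with a score of 195 at Gadd45g and 88 at Gadd45b. The peaks named Gadd45a lay far upstream and were weak, with scores of 91 at -65418 bp and 59 at -32656 bp.

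Bbc3 encodes PUMA, a BH3-only protein that triggers apoptosis. Its H3K4me3 peak was of moderate score (564) but very wide. At 4414 bp (chr7:16043492-16047905) it was the third widest of 16251 peaks, against a median width of 1164 bp over the list and 1287 bp over peaks within 3 kb of a TSS. It began 16 bp before the first annotated TSS and ran 4397 bp into the gene, across the later Bbc3 starts. A further peak of score 43 lay at -9796 bp.

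**Figure D1:**
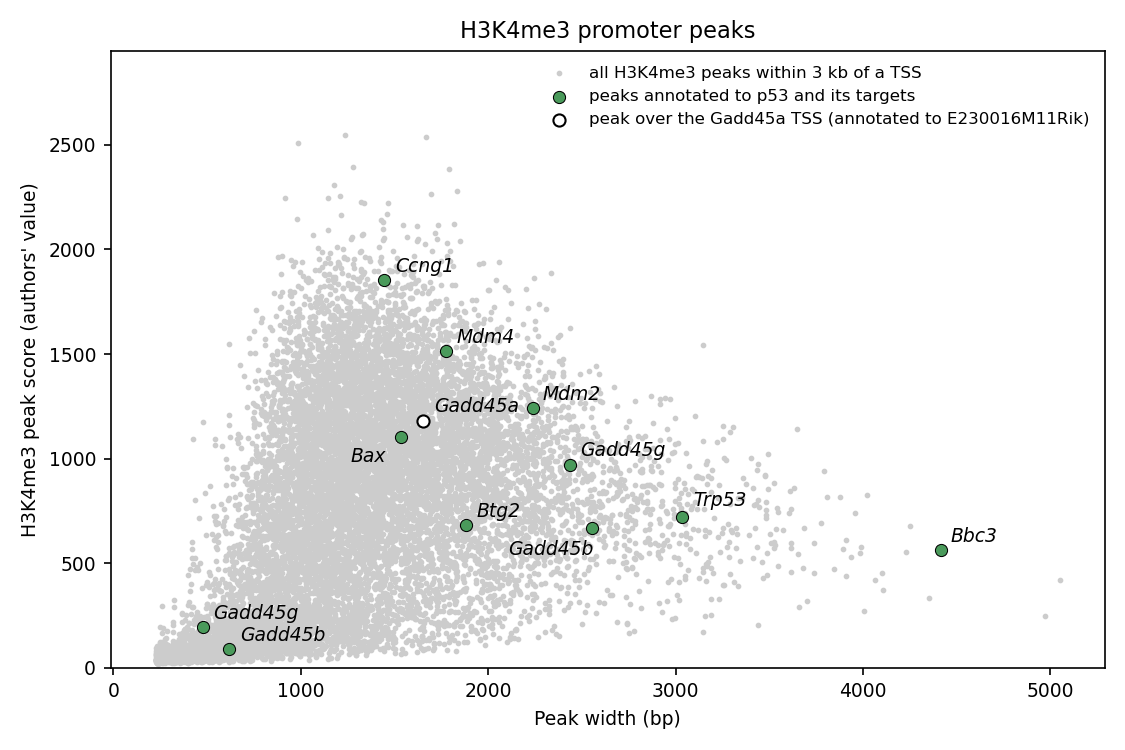
Width (x axis, bp) and score (y axis, the authors' value) of every H3K4me3 peak within 3 kb of a TSS in 1 library, as grey points, with the peaks of p53 and its targets in green and the peak over the Gadd45a TSS as an open circle. Ccng1 lies high at a score of 1852, and Bbc3 lies far to the right at 4414 bp.

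Peaks of tagged PLAGL1 bore the names of 4 of the 10 genes, Bbc3 and the 3 Gadd45 genes. The peak named Gadd45g lay 111102 bp from its TSS. For Trp53, Mdm2, Mdm4, Bax, Ccng1 and Btg2 no peak bore the gene's name. Of all protein-coding genes 9.82% had a PLAGL1 peak by name. Within 3 kb of the TSS the count was 2 of 10, Bbc3 and Gadd45a, against 5.82%. All 8 peaks were weak, with scores of 22 to 39 and a median of 31, and none reached the median of 40 over the list, whose scores run from 20 to 402. At those 6 genes the nearest PLAGL1 peak of any name was 660440 bp from the Mdm4 TSS, 91902 bp from that of Trp53, 82011 bp from that of Mdm2, 32107 bp from that of Bax, 21556 bp from that of Ccng1 and 19822 bp from that of Btg2. None of the 6 promoters therefore had a PLAGL1 peak under another gene's name.

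At Bbc3 the PLAGL1 peak (chr7:16043240-16043425, score 35) covered -268 to -83 bp. It ended 66 bp short of the H3K4me3 peak, so it lay just upstream of the marked domain, inside a KLF4 site. If the start is the same base in both builds, this span holds, in the printed Bbc3 sequence, the CACCC match at -210 bp and the first GC box at -154 bp, while the other 4 GC boxes lie closer to the TSS. At Gadd45a the PLAGL1 peak (chr6:67014197-67014297, score 31) lay in exon 1, from +94 to +194 bp, inside both the H3K4me3 peak and a KLF4 site. It begins after the printed sequence ends.

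Gadd45b had 5 PLAGL1 peaks, a number reached by 44 of the 2582 genes named in the list. Of these, 4 formed a cluster of 2606 bp downstream of the gene, at +4019 to +6624 bp from the TSS, with scores of 31, 39, 38 and 22 (chr10:80769944-80770044, chr10:80771196-80771387, chr10:80771847-80772066 and chr10:80772445-80772549). When peaks at most 2 kb apart were joined, 14 of 3107 groups held 4 or more peaks. None of these 4 peaks overlapped H3K4me3 or KLF4: the marked domain ended 1579 bp before the cluster and the nearest KLF4 site lay 2412 bp after it. The fifth (score 29) was in an intron of the neighbouring Gng7, 25655 bp from the Gadd45b TSS, and overlapped a KLF4 site. The single peak named Gadd45g (score 30) lay 111102 bp from its TSS in a simple GT repeat.

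In all, 3 of the 8 PLAGL1 peaks overlapped a KLF4 site, where 62.4% of all PLAGL1 peaks did, and 1 of 8 overlapped H3K4me3, where 48.7% did. With 8 peaks named for 4 genes, 5 of them for Gadd45b, these shares describe the genes and were not tested.

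**Figure D2:**
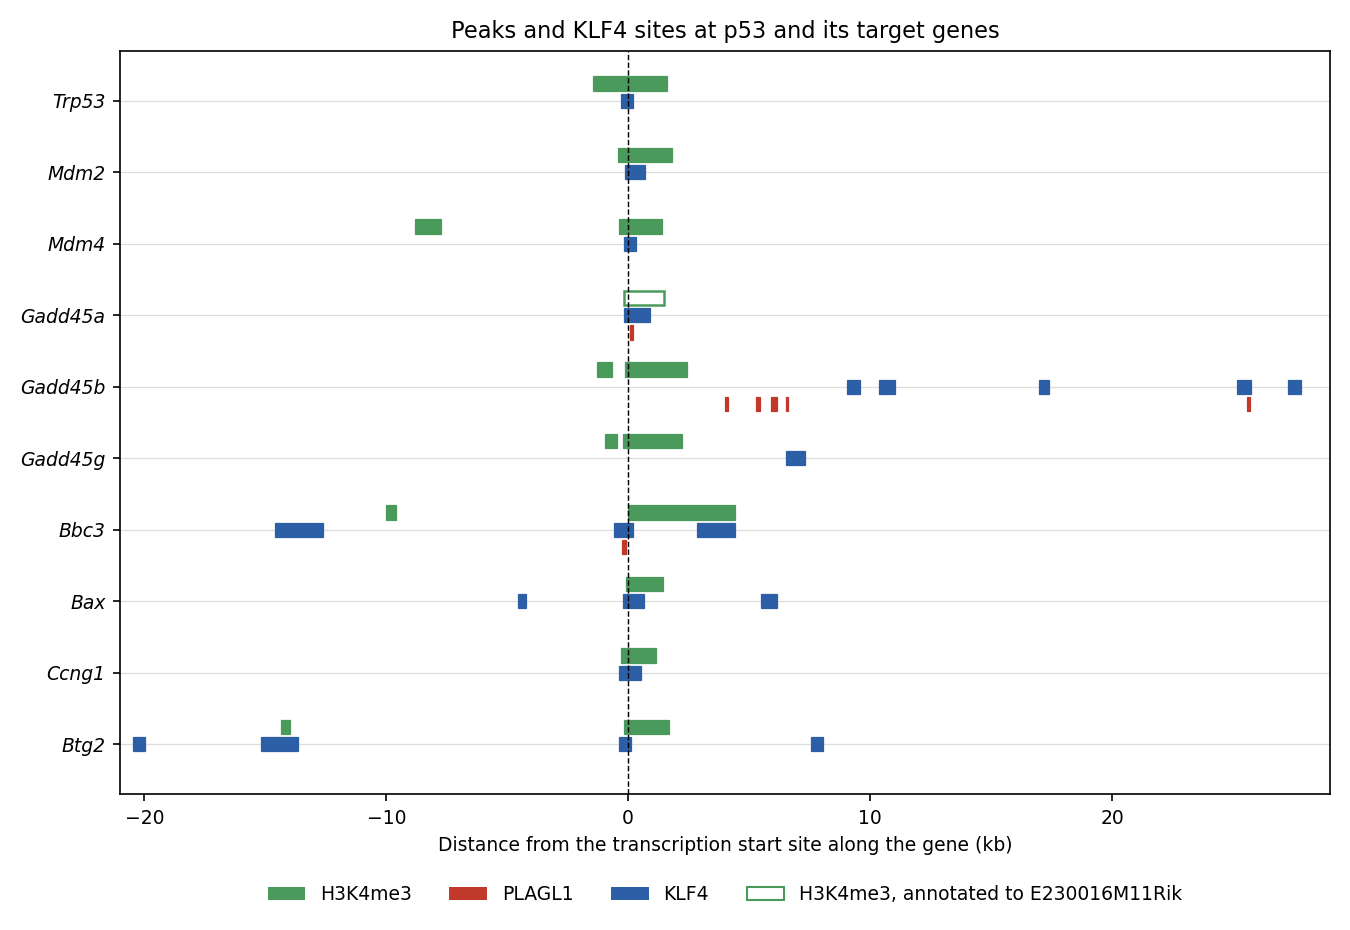
H3K4me3 peaks (green), KLF4 sites (blue) and PLAGL1 peaks (red) at each gene by distance from the TSS along the gene (x axis, kb), from 21 kb before to 29 kb after it. KLF4 sits over the TSS in every gene but Gadd45b and Gadd45g, and PLAGL1 is drawn at Bbc3, Gadd45a and Gadd45b. Peaks of Gadd45a and Gadd45g beyond these limits are not drawn. Within the limits only linked KLF4 sites and peaks bearing the gene's name are drawn, plus the E230016M11Rik peak at Gadd45a as an open box. Other peaks named for neighbouring genes, such as Ccdc9 near Bbc3 and Chit1 near Btg2, are left out.

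KLF4 lay over the TSS of 8 of the 10 genes, each with 1 site: Trp53, Mdm2, Mdm4, Gadd45a, Bbc3, Bax, Ccng1 and Btg2. The share was 58.3% of 9109 protein-coding genes that had a peak within 3 kb of the TSS and a strand in the RefSeq promoter table. In both counts the TSS is the start nearest to a peak of the gene, and no KLF4 site lay over the second Mdm4 start. A KLF4 site lay in the named H3K4me3 promoter peak of 7 of 9 members, against 68.5% of 11229 marked protein-coding genes. The exceptions were Gadd45b and Gadd45g, where the TSS was marked but the nearest KLF4 site lay 9036 bp and 6540 bp away, on the downstream side. Both of their printed promoters hold 2 CACCC matches, and Gadd45b also has 1 GC box, while Gadd45a, with a KLF4 site, has 1 of each.

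The KLF4 sites over the TSS differed in strength. Signal is given here as the mean log2 CPM in the authors' deposited table, less the log2 of the site's width in kb, so that sites of different width can be compared; its median over all sites of that deposited table was 5.91. Bbc3 stood highest with 7.62 (98.1st percentile) in the authors' deposited table and Btg2 next with 7.33 (96.3rd). Mdm2 followed with 6.22 (66.9th), and Mdm4 (5.90), Bax (5.88), Ccng1 (5.81) and Gadd45a (5.79) lay near the median, from the authors' deposited table. Trp53 was lowest at 5.61 (32.0th percentile) in the authors' deposited table. Bbc3 and Btg2 also had the highest promoter GC content, and the part of base composition in the signal was not tested. No error between libraries can be given, since that deposited table has 1 mean per site.

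Away from the TSS the sites with the highest signal per kb were at Bbc3, Gadd45b and Btg2. A second Bbc3 site (chr7:16046350-16047939), at +2842 to +4431 bp and thus at the far end of the wide H3K4me3 domain, had 7.68 (98.4th percentile) in the authors' deposited table. For Btg2, a site of 1544 bp centred about 14 kb upstream (chr1:134020548-134022091) covered the weak H3K4me3 peak there and had 7.40 (96.9th percentile) in the authors' deposited table. Gadd45b had its strongest site at +10350 bp (chr10:80776275-80776934), with 7.54 (97.7th percentile) in the authors' deposited table. Of the 23 linked sites 12 overlapped a member's peak, 10 of them H3K4me3 and 3 PLAGL1, with the Bbc3 promoter site counted in both. The other 11 were linked by distance. Among these 11 was a site at +115526 bp from the Gadd45g TSS, linked through the distant PLAGL1 peak of that name.

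The study then compared KLF4 between control and Plagl1-deficient cells, and no linked site differed past the threshold. At an adjusted p under 0.05 by edgeR, the authors' deposited table called 0 of the 23 sites, where 0.0379% of all sites were called with a negative and 0.00947% with a positive log2 fold change. The lowest adjusted p among them in the authors' deposited table was 0.741. At an unadjusted p under 0.05 there were 2 in the authors' deposited table, 1 negative and 1 positive, against 3.05% negative and 3.4% positive of all sites. The authors' deposited table does not say which group is the numerator, so a sign is given and no group is called higher. It has no values for single libraries, so the spread within each group of 3 cannot be shown.

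Both sites with an unadjusted p under 0.05 were at Gadd45b and had opposite signs. The site at +9037 to +9603 bp (chr10:80774962-80775528) had a log2 fold change of -0.29 (approximate 95% interval -0.56 to -0.02) and an adjusted p of 0.741 in the authors' deposited table, the interval being built from the fold change and its F. A site at +27271 bp, inside the Gng7 locus (chr10:80793196-80793719), had 0.42 (0.03 to 0.81) in the authors' deposited table, where its adjusted p was 0.749. The third lowest p was at a site at -4544 to -4209 bp from the Bax TSS (chr7:45120531-45120866), a weak site for which the authors' deposited table gives -0.49 (-1.11 to 0.13) and an adjusted p of 0.845. The other 3 sites linked to Gadd45b had -0.04, -0.17 and -0.01 in the authors' deposited table, each with an interval that included 0.

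Over the TSS the differences were small. The 8 sites had log2 fold changes from -0.08 at Bax to 0.15 at Trp53 in the authors' deposited table, 3 negative and 5 positive, with standard errors of 0.09 to 0.23. At the Bbc3 promoter, where a PLAGL1 peak overlapped a KLF4 site, the authors' deposited table gives a difference of 0.03 (-0.15 to 0.20). For Gadd45a, the other such promoter, the authors' deposited table gives 0.08 (-0.20 to 0.36). The PLAGL1 peaks came from 1 separate library of cells given tagged PLAGL1. Whether PLAGL1 was bound at these promoters in the compared cells was not measured. Mdm2 had 0.02 (-0.24 to 0.29) and Mdm4 0.09 (-0.31 to 0.48) in the authors' deposited table. By the authors' deposited table the interval stayed within 0.5 of 0 at 7 of the 8 sites, the exception being Trp53 (-0.30 to 0.60), the weakest of them. Over all 23 sites the median was 0.02 in the authors' deposited table, with 11 negative and 12 positive values, beside 0.00 over all 21130 sites. The intervals of 16 sites stayed within 0.5, and of 22 within 1, in the authors' deposited table. These values do not show that KLF4 binding was equal, since smaller changes fit inside the intervals. The intervals also rest largely on variation pooled over sites, not on the spread of the libraries at each site.

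**Figure D3:**
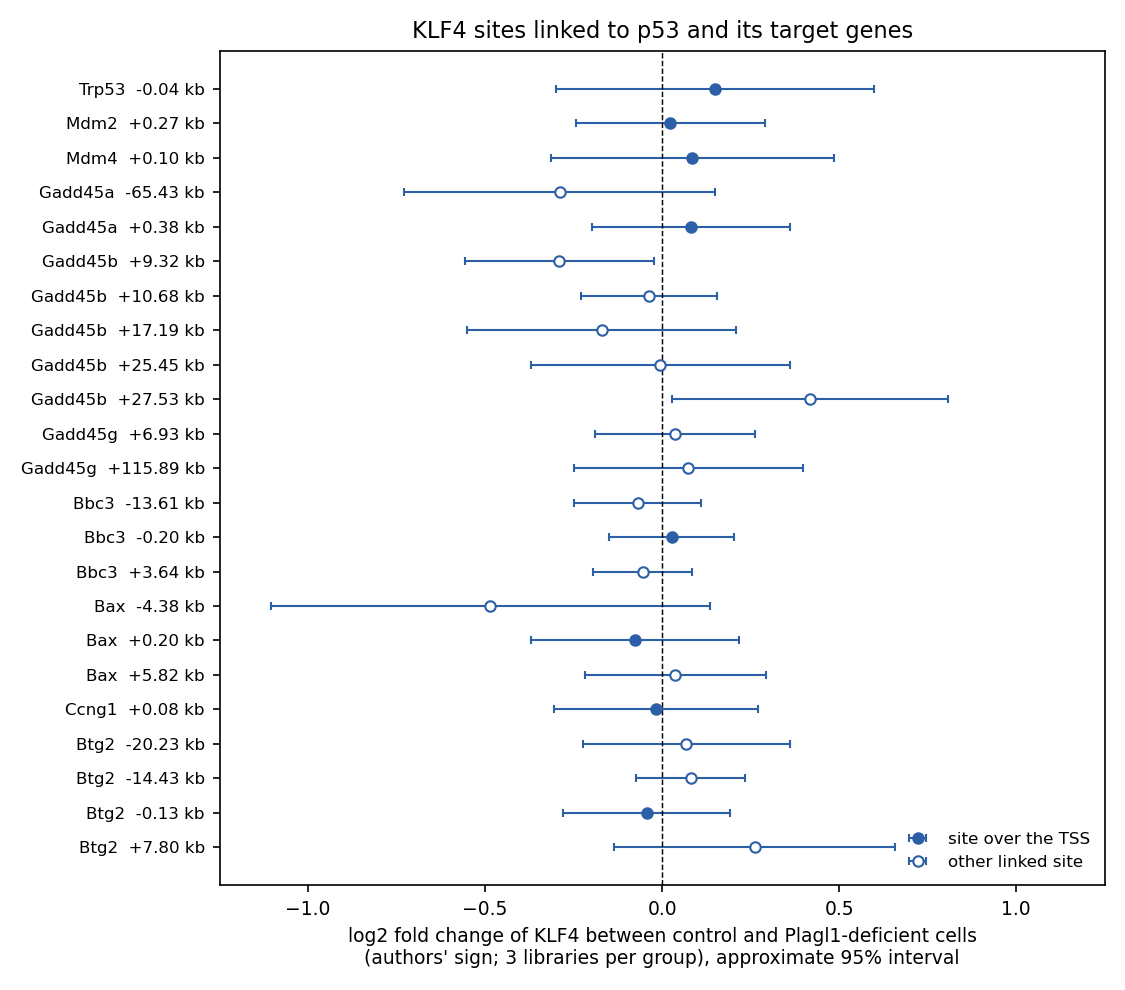
log2 fold change of KLF4 between control and Plagl1-deficient cells (x axis, sign as in the authors' deposited table) with approximate 95% intervals for the 23 linked sites, named by gene and by the distance of the site's centre from the TSS. The interval includes 0 at every site but 2, both at Gadd45b and of opposite sign, and filled points mark the 8 sites over a TSS.

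Other genes of the p53 network were described in the same way, from a list of 77 genes in 6 roles. An H3K4me3 peak lay within 3 kb of the TSS of 62 of them (80.5%), and 49 of these 62 (79.0%) had a KLF4 site in that peak, beside 51.3% and 68.5% over protein-coding genes. The highest scores belonged to Sesn2 (1830), a stress-induced regulator of mTORC1, Cycs (1828), which encodes cytochrome c, Rps27l (1826), Aen (1681), a p53-induced nuclease, and Pcna (1480), the replication clamp. By role, 17 of 18 apoptosis genes, 14 of 16 metabolism and stress genes and 8 of 9 arrest genes were marked. So were 15 of 19 cofactors and regulators of p53, 4 of 8 genes listed as sensors and kinases, and 4 of 7 repair genes. The list places Rps27l with the sensors and kinases, and it is among the 4 marked there. Atm, Atr, Chek2 and Prkdc were unmarked by name, and a peak bears 1 gene's name only, as seen above for Gadd45a.

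A PLAGL1 peak was named for 11 of the 77 genes (14.3%), within 3 kb of the TSS in 8 (10.4%), beside 9.82% and 5.82% over protein-coding genes. Cdkn2a, which encodes the MDM2 inhibitor ARF as well as p16, had 2 peaks of 72 and 47, the latter at +33 bp from a start and with no KLF4 site. Pcna had 57 and 55, and Bcl2l1, an inhibitor of apoptosis, 50 and 31. Cdkn1a, which encodes the p53-induced cell cycle inhibitor p21, had a peak of 46 in intron 1 at +1642 bp, in both H3K4me3 and KLF4. Single peaks were named for Steap3 (61), Tsc2 (40), Plk2 (30), Sesn1 (28) and Btg1 (21). None of the 8 sensors and kinases had one.

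Of the 93 KLF4 sites linked to these 77 genes, 0 passed an adjusted p of 0.05 by edgeR, as the authors' deposited table gives it. Over all sites 0.0379% were called with a negative and 0.00947% with a positive log2 fold change. The count at an unadjusted p under 0.05 was 4 in the authors' deposited table, 1 negative and 3 positive. Of all sites, 3.05% had such a p with a negative and 3.4% with a positive log2 fold change. The lowest p of the 93 sites was at Bcl2l11, for which the authors' deposited table gives 0.33 (0.05 to 0.60) and an adjusted p of 0.718. The median log2 fold change of the 93 sites was -0.03 in the authors' deposited table.

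**Figure D4:**
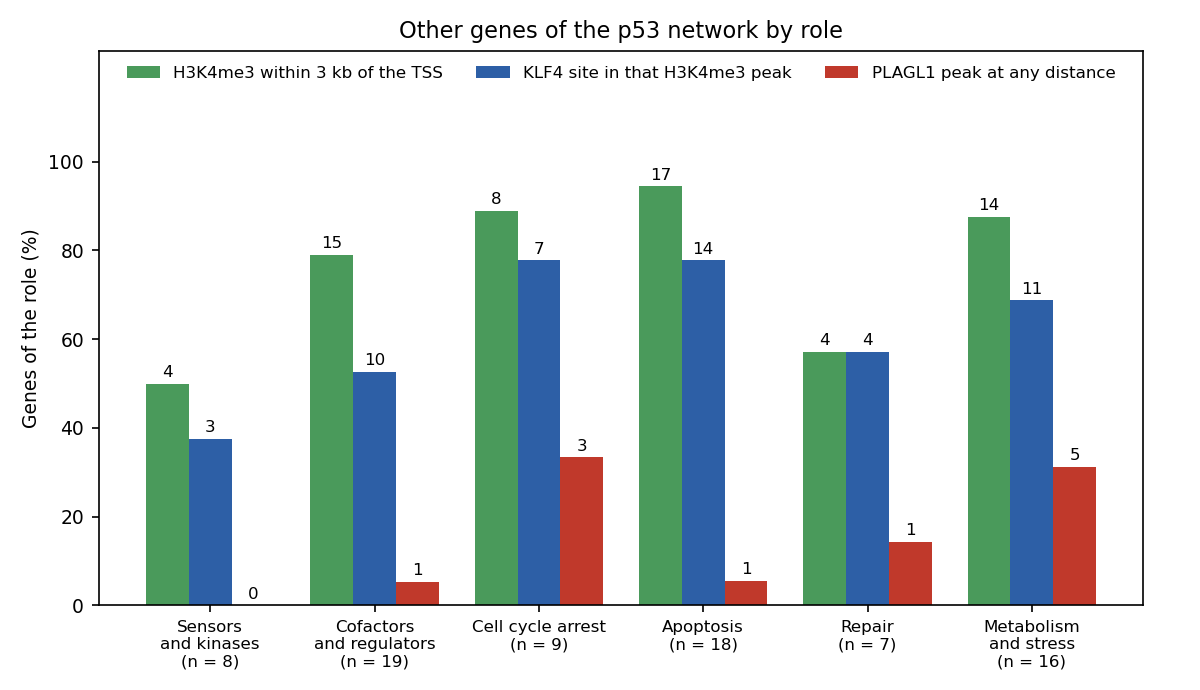
Share of genes (y axis, %) in each of 6 roles of the p53 network with an H3K4me3 peak within 3 kb of the TSS (green), a KLF4 site in that peak (blue) and a PLAGL1 peak at any distance (red), with the number of genes above each bar. The H3K4me3 share is lowest among genes listed as sensors and kinases, Rps27l included (50.0%), and repair genes (57.1%). PLAGL1 is named at 0 to 5 genes a role.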

How the data were processed

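The 9 libraries were grouped by their titles. The submitters' processing notes name the peak tools MACS3 3.0.2 and HOMER 4.11.1, the comparison tools edgeR 4.2.0 and DiffBind 3.16.0, the read tools Bowtie2 2.5.4, SAMtools 1.21, Trim Galore 0.6.10 and GATK 4.5.5.0, deepTools 3.5.5 and the build mm39, without saying how each was used; treatment of duplicates and repeats and the scaling between libraries are not given in the sources used here. These steps set which peaks exist and where 0 lies for a fold change. Peak score, gene name and distance to the TSS in base pairs are as deposited, per the file headers. PLAGL1 peaks were called for HA against IgG, as the authors named the file. For KLF4 the authors' deposited table lists per consensus site the log2 fold change, log2 CPM averaged over libraries, F (a test score), p-value and FDR, and its name credits edgeR. Its FDR was checked to be the deposited p-value adjusted by Benjamini-Hochberg over the 21130 sites. No table gives counts, so depth per library is unknown and nothing was refitted.

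Computed here, with Python 3.11.15, pandas 2.3.3, numpy 2.4.6, scipy 1.17.1 and matplotlib 3.10.9: overlaps of at least 1 bp, links to KLF4 within 10 kb, and the TSS as the peak centre less its signed distance, with the strand from RefSeq (position 0 is the TSS). The standard error is the absolute log2 fold change over the square root of F, and intervals use degrees of freedom solved from F and p (median 87.6, also used where F was under 0.5). That median is far more than 3 libraries per group can give, so the error at a site draws largely on variation pooled over sites. The interval and adjustment code was run on simulated normal effects that follow the same formula, which checks the code alone. How well the approximate intervals hold for these KLF4 sites was not tested. Named genes are all members, network genes with a PLAGL1 peak, the 5 network genes with the highest H3K4me3 score and the linked sites with the 3 lowest p-values; some network genes are counted but not reported here by name. The members and the lists were chosen with earlier results of these data known, so list counts have no test. Sequences are from RefSeq, GRCm38.p6; all 10 members matched. Columns belonging to further samples numbered 0.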

Additional observations from a re-analysis of the deposited data

How the results depend on the processing

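At an unadjusted p under 0.05 the count of linked KLF4 sites called rose from 0 to 2, while an adjusted p under 0.1, adjustment without the sex chromosomes and overlap alone left it at 0. The 4 members with a PLAGL1 peak became 2 within 3 kb of the TSS and 0 at scores of at least the median of 40, so the PLAGL1 values of these 10 genes rest on 8 peaks that all score below that median. The 10 members with an H3K4me3 peak by name became 9 within 3 kb, 8 within 1 kb and 8 at scores of at least the median. The 23 linked KLF4 sites became 15 with a gap of at most 3 kb, 12 with an overlap of 1 bp and 8 with an overlap of at least 50% of the site, by the construction of those limits. For the network list, peaks at any distance gave 64 genes with H3K4me3 in place of 62 and 11 with PLAGL1 in place of 8. No paired analysis was possible because the KLF4 table holds no values per library, and for the same reason no replicate could be left out. PLAGL1 and H3K4me3 have 1 library each, and with depth unknown a gene with no peak is one where none was called.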

Other observations

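Upstream of Bbc3 and Btg2 lay KLF4 sites that overlapped both PLAGL1 and H3K4me3 peaks named for neighbouring genes. About 14 kb before Bbc3, a KLF4 site of 1954 bp (chr7:16028921-16030874) overlapped a PLAGL1 peak of score 35 and an H3K4me3 peak of score 253, both named Ccdc9. These PLAGL1 and H3K4me3 peaks lay under different parts of the site and did not overlap each other. The log2 fold change of this KLF4 site was -0.07 (-0.25 to 0.11) in the authors' deposited table. About 20 kb before Btg2, a KLF4 site (chr1:134026883-134027367) overlapped a PLAGL1 peak of score 35 and an H3K4me3 peak of score 108, both named Chit1, and had 0.07 (-0.22 to 0.36) in the authors' deposited table. A rule by gene name does not count these peaks for Bbc3 or Btg2, and which gene they act on was not measured.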
